A study of Macaca mulatta with 4 samples.

Results

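The genes described here are 10 genes of the complement cascade and of the homeostatic programme of microglia, C1QA, C1QB, C1QC, C3, CSF1R, CX3CR1, P2RY12, P2RY13, TREM2 and SELPLG. They were taken by symbol from the gene list of 30807 genes, and 9 of the 10 had a row. C1QA had none, and the identifier that the name table gives for it was not in the list either, so C1QA was not analysed here. The other members are listed as C1QB (ENSMMUG00000039764), C1QC (ENSMMUG00000020756), C3 (ENSMMUG00000008693), CSF1R (ENSMMUG00000011556), CX3CR1 (ENSMMUG00000022960), P2RY12 (ENSMMUG00000001105), P2RY13 (ENSMMUG00000038998), TREM2 (ENSMMUG00000013920) and SELPLG (ENSMMUG00000031572). Their unique molecular identifiers (UMIs, each standing for 1 captured RNA molecule) were counted in barcodes with 500 or more genes, called nuclei here.

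Complement is a cascade of secreted proteins. C1q, assembled from the products of C1QA, C1QB and C1QC, recognises tagged surfaces and starts the classical pathway, which converges on C3, and in the developing brain both can mark synapses for removal by microglia, the resident macrophages of the brain. Microglia depend on CSF1R, the receptor for CSF1 and IL34, sense neurons through the fractalkine receptor CX3CR1 and extracellular nucleotides through P2RY12 and P2RY13, and use TREM2 as a lipid receptor that signals through TYROBP. SELPLG encodes the ligand of P-selectin.

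The question was how these genes were distributed over the nuclei of the late-gestation cerebellum of the rhesus macaque, and whether their levels differed after exposure of the fetus to bacterial lipopolysaccharide (LPS). Single nuclei came from flash-frozen cerebellum. The Control group held a female and a male fetus of 130 days that had received no intervention. The LPS group held a male fetus of 133 days and a female of 131 days, both 5 days after 1 mg of LPS was given into the amniotic cavity. Each library came from 1 fetus, so that n was 2 in each group, the LPS fetuses were older than the Control fetuses by 1 to 3 days, and an exact permutation test of a single value could not go below p = 0.333.

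The 4 libraries held 34282015 to 61665690 UMIs and 6905 to 9256 nuclei, 32587 in all. Median UMIs per nucleus were 4506 in Control female and 4062 in LPS female but 1882 in Control male and 2308 in LPS male. The mean mitochondrial share of UMIs divided the libraries in the same way, at 0.268% and 0.231% in the female libraries and 0.0214% and 0.0327% in the male libraries. LPS male also stood apart, with 38.7% of its UMIs in nuclei against 58.7% to 74.1% elsewhere. It also had 24.2% of its nuclei in a cluster of low UMI count, called unnamed cluster 6 here. In that cluster 2 of the 5 markers of the best-scoring class were raised, fewer than the 3 needed for a name. Of all barcode sequences, 111 were kept in more than 1 library, and 5 of the 261 immune nuclei carried such a barcode.

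The immune nuclei made up 0.801% of all nuclei. They were clustered without the members, so that the members' levels had no part in the grouping, and separated into 3 sets. The first, 137 nuclei, had raised levels of all 17 microglial markers measured and is called microglia. The second, 69 nuclei, had raised levels of all 9 markers scored for macrophages that carry LYVE1 and line vessels and meninges, F13A1 and MRC1 among its leading genes, and is called LYVE1 macrophages, although its 10 leading genes also held ITGAM, FYB1 and TBXAS1 of the microglial list. The third, 55 nuclei, also carried granule cell markers, 9 of 11 raised, and is called mixed immune nuclei and left without a cell type. Of the markers of other blood cells, 5 of 7 for T or NK lymphocytes and 3 of 8 for monocytes or neutrophils were at 0 in the microglia of all libraries. The monocyte or neutrophil list, with 3 to 5 markers detected per library, summed to 121 to 206 CPM there, the B lymphocyte list to 129 to 263 CPM and the T or NK list to 0 to 12.9 CPM, beside 13673 to 21637 CPM for the microglial list; their part in the members' levels was not tested. Scrublet, a doublet caller, marked none of the microglia and 18 of the 55 mixed immune nuclei (32.7%). LYVE1 itself had 5, 2, 0 and 2 UMIs in the microglia of Control female, Control male, LPS male and LPS female and 55, 23, 1 and 83 in the LYVE1 macrophages.

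All 9 measured members were concentrated in immune nuclei. Over the 4 libraries, their level in microglia, in UMIs per 1000000 UMIs of that class (CPM), exceeded the level in each of the 13 classes outside the immune nuclei. The microglial level was 69.4 times the level over all of those classes together for C1QB, 119 times for C1QC, 310.4 times for C3 and 350 times for TREM2. It was 566 times for CSF1R, 682 times for CX3CR1, 401 times for P2RY13, 287 times for SELPLG and 103 times for P2RY12. Except for P2RY12, the members were at 10.2 CPM or less in every class outside the immune nuclei, and SELPLG was at 2.38 CPM or less. The highest of these values, 10.2 CPM of C3, was in unnamed cluster 6 and came from 20 UMIs, 17 of them in LPS male. The next, 10.1 CPM of TREM2 in mural cells, was 1 UMI in the 31 nuclei of that class.

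**Figure D1:**
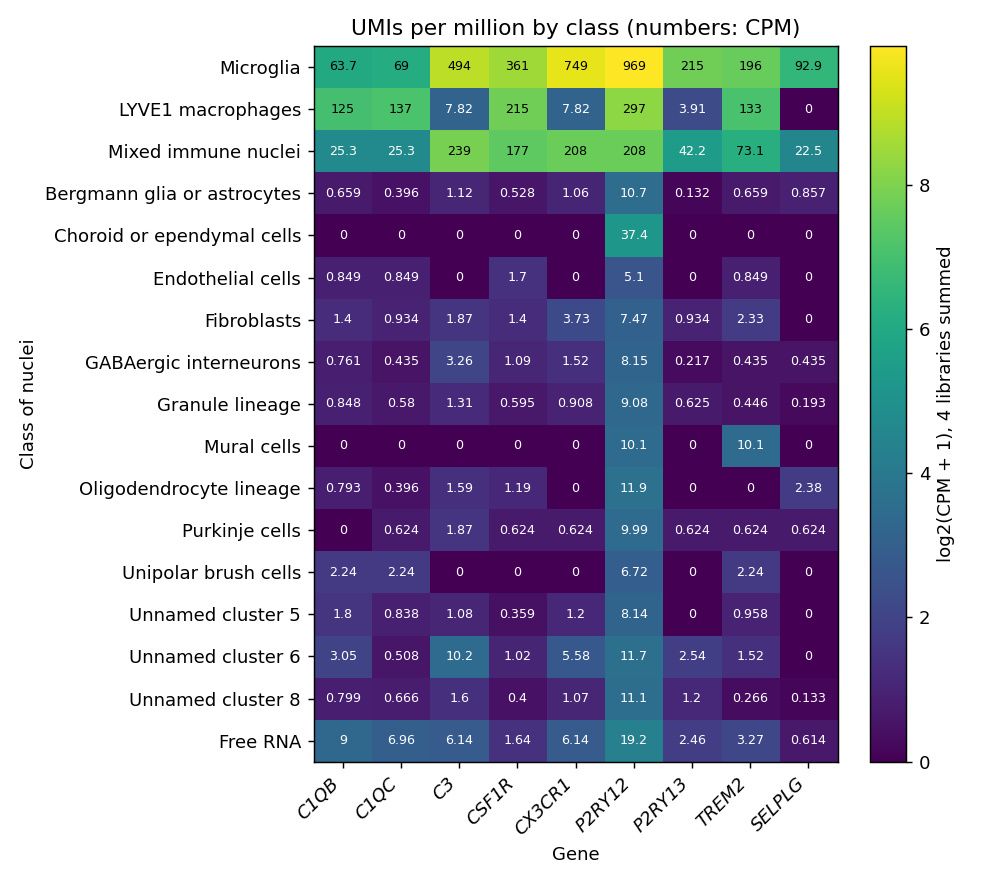
Level of each member (columns) in each class of nuclei and in free RNA (rows), in CPM with the 4 libraries summed; the number in each cell is the CPM and the colour is log2(CPM + 1). Colours compare classes within a gene, since levels were not corrected for gene length; microglia are the brightest row for every gene except C1QB and C1QC, which are brightest in LYVE1 macrophages, while C3, CX3CR1, P2RY13 and SELPLG are at 0 to 7.82 CPM in LYVE1 macrophages.

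P2RY12 was the exception outside the immune nuclei. Only 31.9% of its 1616 UMIs lay in immune nuclei, against 37.6% to 77.2% for the other members, and 610 lay in nuclei of the granule lineage. It was found in every class, at 5.10 to 37.4 CPM outside the immune nuclei, the highest value being 7 UMIs in choroid or ependymal cells. P2RY12 and P2RY13 both lie inside the gene MED12L in the RefSeq annotation of the assembly T2T-MMU8v2.0, and intronic reads were counted, so that the assignment of their UMIs is uncertain. In granule lineage nuclei there were 4.61 UMIs of P2RY12 for 100 of MED12L, in Bergmann glia or astrocytes 5.45, in GABAergic interneurons 4.55 and in oligodendrocyte lineage nuclei 5.33. The ratio was 16.2 in endothelial cells (6 UMIs of P2RY12) and 14.0 in fibroblasts (16 UMIs). It was 3.72 in choroid or ependymal cells (7 UMIs) and lowest, at 2.73, in unipolar brush cells (3 UMIs). In microglia the same ratio was 445 and in LYVE1 macrophages 217. The part of MED12L in the P2RY12 UMIs was not tested. C3 overlaps a gene without a name in the same annotation, and the other members overlap no gene.

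The share of nuclei with a UMI showed the same concentration. In microglia, 92 of 137 nuclei held P2RY12 (67.2%, exact 95% binomial interval 58.6 to 74.9%), and in nuclei of the granule lineage, which should lack the gene, 3.04% did. CX3CR1 was seen in 59.1% of microglia (50.4 to 67.4%) and 0.300% of granule lineage nuclei. C3 and CSF1R were each seen in 75 of the 137 microglia, or 54.7%, and in 0.466% and 0.209% of granule lineage nuclei.

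TREM2 was seen in 36.5% of microglia, P2RY13 in 32.8%, SELPLG in 21.2%, C1QC in 16.8% and C1QB in 15.3%. In granule lineage nuclei these shares were 0.0697% to 0.295%. Median UMIs were 1538 to 3462.5 per microglial nucleus and 1758 to 4509 per granule lineage nucleus, so the nuclei in which the shares were low were the deeper ones in every library. Of the 137 microglia, 8 held no UMI of any member and 92 held UMIs of 3 or more; these intervals, and all others given here, cover counting error only.

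The microglia and the LYVE1 macrophages shared some members and not others. The C1q genes ran opposite to the others: C1QB, a chain of C1q, was at 63.7 CPM in microglia (24 UMIs) and 125 CPM in LYVE1 macrophages (32 UMIs), a ratio of 0.509 with an exact 95% counting interval of 0.287 to 0.892. C1QC, which encodes another chain, gave 69.0 and 137 CPM and a ratio of 0.504 (0.292 to 0.862). Both rested on the female libraries, where the LYVE1 macrophages held 16 and 15 UMIs of C1QB and 15 and 18 of C1QC, while in Control male they held 1 and 2. In Control male the level in microglia was the higher of the pair for both genes.

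C3, the component on which the complement pathways meet, was the reverse. The microglia held 186 UMIs of C3 (494 CPM) and the LYVE1 macrophages 2 (7.82 CPM), a ratio of 63.1 (17.2 to 525). The microglia were higher in each of the 4 libraries, although LPS male held only 3 LYVE1 macrophages, with 0 UMIs of C3. The complement genes measured here were divided between the 2 kinds of macrophage, C1QB and C1QC lying in both and C3 almost entirely in microglia among them.

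The receptors fell into the same 2 sets. CX3CR1 had 282 UMIs in microglia and 2 in LYVE1 macrophages (ratio 95.7, 26.3 to 794), and P2RY13 had 81 and 1 (ratio 55.0, 9.59 to 2198). SELPLG had 35 and 0, which put its level in microglia at least 7.92-fold higher with the macrophages taken at a floor of 3 UMIs over the group, or 11.7 CPM. No LYVE1 macrophage of 69 held a UMI of SELPLG, a count that allows up to 4.35% of nuclei with a UMI and sets no limit on the nuclei that express the gene.

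CSF1R, P2RY12 and TREM2 were found in both. CSF1R was at 361 CPM in microglia and 215 CPM in LYVE1 macrophages, a ratio of 1.68 (1.22 to 2.34), and P2RY12 at 969 and 297 CPM, a ratio of 3.26 (2.54 to 4.23). The microglia were the higher class in all 4 libraries for both genes. In LPS male this rested on 3 LYVE1 macrophages, with 3 UMIs of CSF1R and 1 of P2RY12. TREM2 was at 196 and 133 CPM, and its ratio of 1.48 had an interval that included equality (0.972 to 2.29). It was higher in microglia in 2 of the 4 libraries, Control female and Control male, with 1 UMI in the LYVE1 macrophages of LPS male. The mixed immune nuclei held all 9 members, from 22.5 CPM for SELPLG to 239 CPM for C3.

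**Figure D2:**
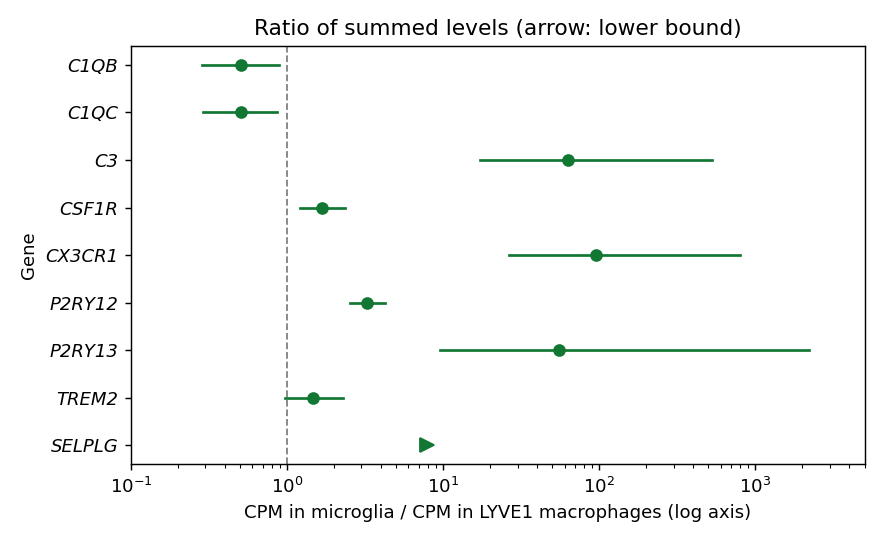
Ratio of the level in microglia to the level in LYVE1 macrophages for each member, from UMIs summed over 4 libraries, on a log axis; bars are exact 95% counting intervals, the dashed line marks equality and the arrow for SELPLG is a lower bound. C1QB and C1QC lie below 1, TREM2, CSF1R and P2RY12 between 1.48 and 3.26, and C3, CX3CR1 and P2RY13 above 50.

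Outside the members, the genes whose levels over the 16 classes most resembled the mean of the members included DHRS9, SIRPB2, TNFAIP8L3, FGD2, CD84, SIGLEC5, SLFN11, RGS1 and TMEM114. Pearson's r of log2(CPM + 1) over the classes was 0.97 to 0.99 for these 9 genes, as a description, since the classes share libraries. TNFAIP8L3 was at 695 CPM in microglia and 39.1 CPM in LYVE1 macrophages, and DHRS9, a dehydrogenase of the short-chain family, at 111 and 11.7 CPM, a difference in the direction seen for C3 and CX3CR1. RGS1, a regulator of G protein signalling, was at 209.7 and 168 CPM, closer to the pattern of TREM2.

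For the comparison of Control with LPS, the UMIs of the microglia were summed within each library, 155252 in Control female, 63119 in Control male, 49419 in LPS male and 108935 in LPS female, from 46, 35, 24 and 32 nuclei. With edgeR's quasi-likelihood test, 2378 genes passed the filter on low counts, and 0 genes (0%) were called, a call needing an adjusted p below 0.1 and a log2 fold change beyond 0.25 in either direction. At an unadjusted p under 0.05 there were 51 genes (2.14%) with edgeR and 13 with DESeq2, which also called 0; there were 83 with sex as a block and 50 to 143 with 1 library left out (143 without Control female, 124 without LPS female, 87 without LPS male). Of the 9 members, 6 were tested, none of them called, 5 were fitted higher in LPS and 1 lower. Their median log2 fold change was 0.61, beside 0.00 over all genes tested. Without Control male 3 of these 6 were fitted higher and 3 lower, with a median of 0.28, the median was 1.10 without Control female, and with the mixed immune nuclei included it was 0.21 with 4 higher and 2 lower. In counts simulated for this comparison, every gene was given the same fixed spread between libraries, which was not estimated from these data. There the test recovered 10.4% of the genes given a log2 change of 1, 61.2% of those given 2 and 95.5% of those given 4. Most changes of 2-fold were thus not detectable at that spread, and recovery at the spread of these libraries was not tested. For the sums over all nuclei, simulated with the same spread, the shares recovered were 5.97%, 74.6% and 100%.

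C3 was higher in both LPS libraries. It was at 296 CPM in Control female (46 UMIs), 396 in Control male (25), 1295 in LPS male (64) and 468 in LPS female (51). The groups did not overlap, and LPS male alone lay far above the others, the counting interval of LPS female overlapping with those of both Control libraries. In the microglia of LPS male the granule lineage markers summed to 769 CPM against 275 to 459 CPM in the other libraries, those of unipolar brush cells to 465 against 63.4 to 206 CPM and those of GABAergic interneurons to 162 against 0 to 38.6 CPM; their part in the C3 level was not tested. The means were 346 ± 70.6 in Control and 882 ± 585 in LPS (SD, n = 2 libraries each). The log2 fold change was 1.34 (SE 0.59, Benjamini-Hochberg adjusted p = 0.999 in edgeR), and C3 was the member among the 51 genes with an unadjusted p under 0.05. Within the female libraries the log2 difference was 0.60 and within the male libraries 1.68, and the fitted value was 0.49 without LPS male and 0.68 with the mixed immune nuclei counted as microglia. The share of microglia with a UMI of C3, after each nucleus was thinned to 1000 UMIs, was 26.1% in Control female, 17.2% in Control male, 54.5% in LPS male and 28.1% in LPS female, and 54.3%, 37.1%, 70.8% and 62.5% before thinning.

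C1QB and C1QC, upstream of C3 in the cascade, were too sparse for the test. C1QB had 12, 5, 1 and 6 UMIs in Control female, Control male, LPS male and LPS female, that is 77.3, 79.2, 20.2 and 55.1 CPM. C1QC had 15, 3, 1 and 7 UMIs, or 96.6, 47.5, 20.2 and 64.3 CPM. The Control libraries lay above the LPS libraries for C1QB and overlapped with them for C1QC, and the exact 95% Poisson intervals of all 4 libraries overlapped for both genes. Fitted without the filter, the log2 fold changes were -0.87 (SE 0.88) and -0.70 (SE 0.86), both with an adjusted p of 0.989 in edgeR.

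TREM2 was lower in both LPS libraries. It was at 206 CPM in Control female (32 UMIs), 380.2 in Control male (24), 162 in LPS male (8) and 91.8 in LPS female (10). The groups did not overlap, with means of 293 ± 123 in Control and 127 ± 49.6 in LPS (SD, n = 2 libraries each), although the counting intervals did, except those of Control male and LPS female. The log2 fold change was -1.23 (SE 0.58, adjusted p = 0.999 in edgeR). Since the groups did not overlap, the difference had to have the same sign in both sexes, at -1.03 in the female and -1.11 in the male libraries. C3 and TREM2 were the members tested whose groups did not overlap, 2 of 6, beside 26.7% of all genes tested (13.1% with both LPS libraries higher and 13.6% with both lower).

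After thinning, a UMI of TREM2 was found in 21.7% and 37.9% of the microglia of Control female and Control male and in 13.6% and 12.5% of those of LPS male and LPS female. Before thinning the shares were 50.0%, 45.7%, 16.7% and 21.9%. The order of the groups was thus that of the CPM at both depths, on 10, 11, 3 and 4 nuclei with a UMI after thinning. The shares were counted from the same UMIs as the CPM, so they are no separate check of the difference.

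CX3CR1 was set by 1 library. It was at 934 CPM in Control female (145 UMIs), 47.5 in Control male (3), 870.1 in LPS male (43) and 835 in LPS female (91). The other 3 libraries lay within each other's counting intervals, and Control male, with an interval of 9.80 to 139 CPM, lay below all of them. The log2 fold change was 0.72 (SE 0.86, adjusted p = 0.999 in edgeR). Without Control male it was -0.15 (adjusted p = 1.00), and with Control male as the lone Control library, without Control female, it was 4.17 and passed the threshold (adjusted p = 0.0479, the lone library being assumed to vary like the others).

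The same contrast appeared in shares of nuclei. A UMI of CX3CR1 was found in 80.4% of the microglia of Control female, 75.0% of those of LPS male and 75.0% of those of LPS female but in 5.71% (2 of 35) of those of Control male. After thinning to 1000 UMIs the shares were 43.5%, 63.6% and 40.6%, and 0 of 29 in Control male, which allows up to 10.3% of nuclei with a UMI at that depth and sets no limit on those that express the gene. Median UMIs per microglial nucleus were 3462.5 in Control female, 1538 in Control male, 1983 in LPS male and 3406 in LPS female, and the part of depth in these values was not tested.

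P2RY12 followed CX3CR1. It was at 1172 CPM in Control female (182 UMIs), 206 in Control male (13), 809 in LPS male (40) and 1193 in LPS female (130). Control male again lay lowest, the groups overlapped, and the log2 fold change was 0.50 (SE 0.69, adjusted p = 0.999 in edgeR), or -0.24 without Control male. The difference within the female libraries was 0.00 and within the male libraries 1.89.

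Control male was also low in the summed microglial markers, although not in all members. CSF1R and TREM2 were higher in Control male than in Control female, but the 17 marker genes of microglia together were at 13673 CPM in Control male against 19486 to 21637 CPM in the other libraries, with all 17 detected. GPR34, a receptor on that list, had 8 UMIs there, against 111, 15 and 48 in Control female, LPS male and LPS female. The list did not run in a single direction: ITGAM was highest in Control male, at 602 CPM against 219 to 395 CPM in the other libraries. The markers of LYVE1 macrophages were at 1901 CPM in the microglia of Control male against 688 to 991 CPM in the others. Among these markers CD163, a scavenger receptor, had 25 UMIs there, against 5, 0 and 4 in Control female, LPS male and LPS female. F13A1, a defining gene of the LYVE1 macrophages, had 3, against 0, 0 and 6, and MRC1 had 11, against 20, 6 and 29. These UMIs came from totals of 63119 in the microglia of Control male and 155252, 49419 and 108935 in those of Control female, LPS male and LPS female. The part of these genes in the level of CX3CR1 and P2RY12 was not tested. In the LYVE1 macrophages the level of these marker genes was 13125 to 14331 CPM.

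P2RY13, an ADP receptor, stood out in a different library. It was at 122 CPM in Control female (19 UMIs), 143 in Control male (9), 60.7 in LPS male (3) and 459 in LPS female (50). LPS female lay above all others and LPS male below them, so the groups overlapped, and the log2 fold change was 1.08 (SE 0.72, adjusted p = 0.999 in edgeR). Without LPS male it was 1.83 (adjusted p = 1.00), and without LPS female the gene did not pass the filter. A UMI of P2RY13 was found in 68.8% of the microglia of LPS female (28.1% after thinning), against 8.33% to 30.4% elsewhere (4.35% to 20.7% after thinning). P2RY12, its neighbour in the genome, did not show this: it was as high in Control female as in LPS female.

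CSF1R and SELPLG showed no separation that the counts could carry. CSF1R was at 283 CPM in Control female, 475 in Control male, 728 in LPS male and 239 in LPS female, both male libraries lying above both female libraries. Its log2 fold change was 0.33 (SE 0.61, adjusted p = 0.999 in edgeR), and it was -0.59 without LPS male and 0.96 without LPS female. SELPLG was at 83.7, 63.4, 121 and 110.2 CPM in the same order, from 13, 4, 6 and 12 UMIs. Both LPS libraries were above both Control libraries for SELPLG, but all 4 counting intervals overlapped, and the fit without the filter gave 0.57 (SE 0.77, adjusted p = 0.989 in edgeR).

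**Figure D3:**
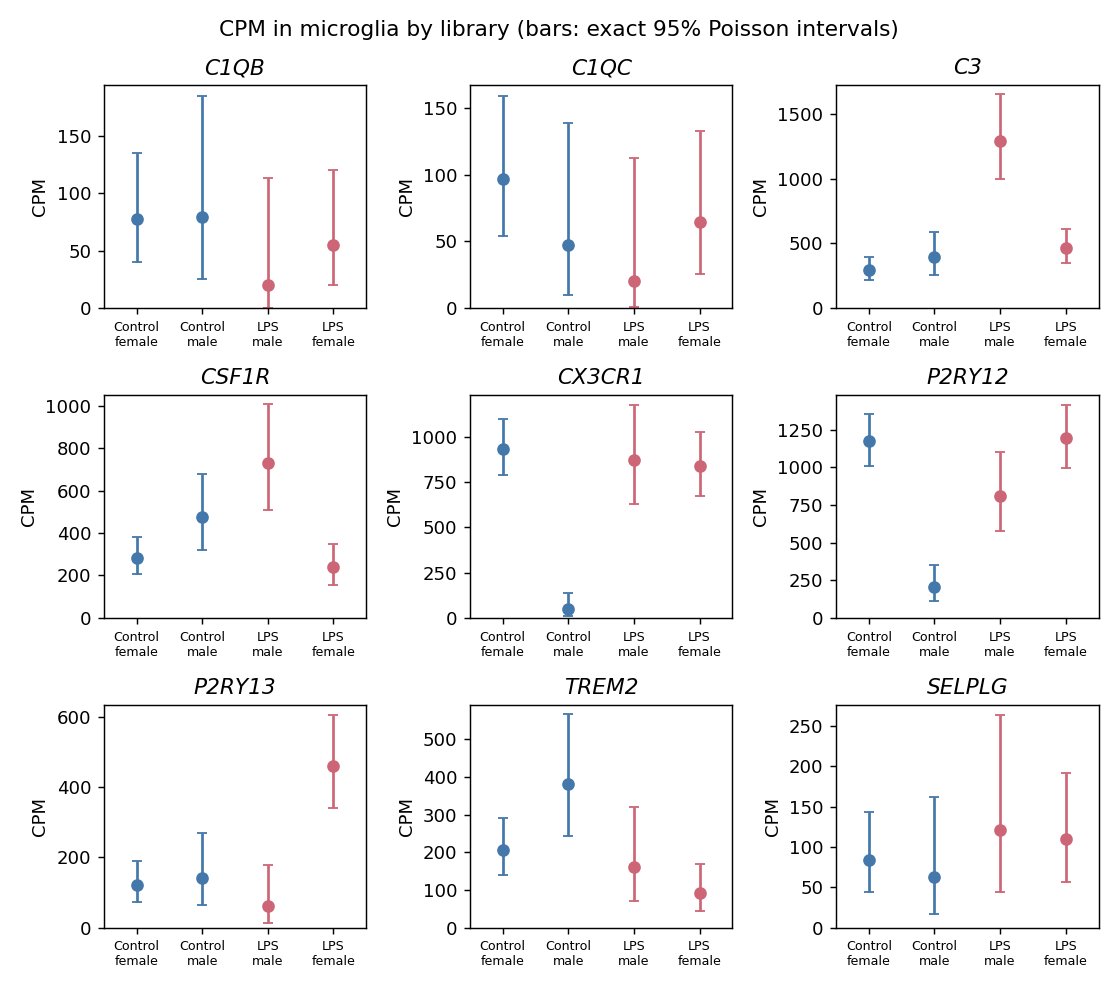
Level of each member in the microglia of each library, in CPM on linear axes that start at 0; points are libraries (blue Control, red LPS) and bars exact 95% Poisson intervals for counting error. C3 is highest in LPS male at 1295 CPM, CX3CR1 and P2RY12 are lowest in Control male at 47.5 and 206 CPM, and P2RY13 is highest in LPS female at 459 CPM.

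**Figure D4:**
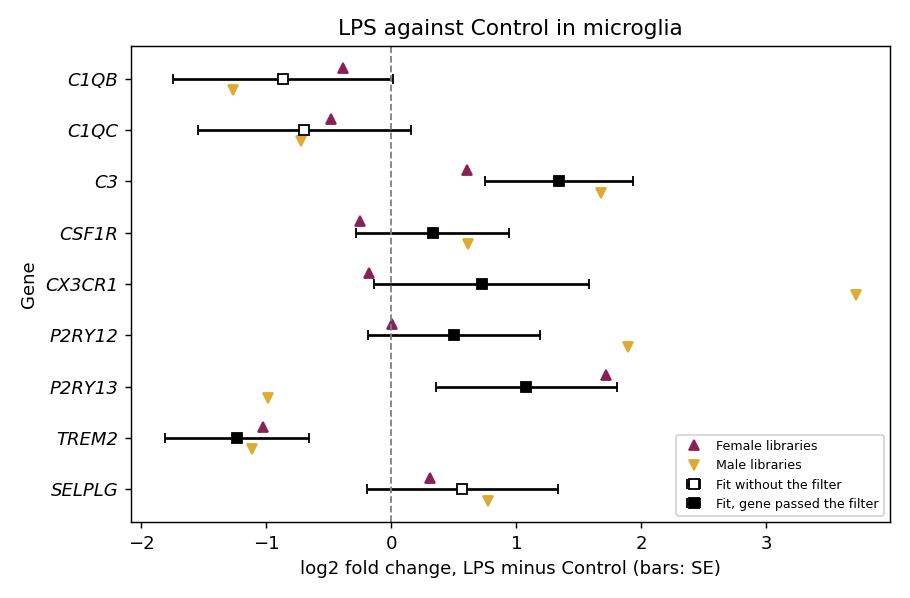
Log2 fold change in microglia, LPS minus Control, for each member; squares with SE bars are the fits over all 4 libraries (filled where the gene passed the filter on low counts), upward triangles the difference between the female libraries and downward triangles that between the male libraries. The values differ in sign between the sexes for P2RY13 (1.72 and -0.98, female and male), CSF1R (-0.249 and 0.62) and CX3CR1 (-0.18 and 3.72). The other members have the same sign in both, P2RY12 being at 0.00 in the female libraries. The differences within a sex were taken with a small count added and are not plain ratios of the CPM.

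Genes that act with the members were examined in the same fit. Of 18 classical, alternative and terminal complement components, 13 were in the gene list and none passed the filter: the 4 highest were CFD, the protease of the alternative pathway, with 7, 0, 3 and 7 UMIs in Control female, Control male, LPS male and LPS female, and C5, C7 and C9, with 1 to 4 UMIs in all. Of 20 complement receptors and regulators, 17 were listed, 4 were tested and 0 were called. ITGAM, a chain of complement receptor 3, was at 219, 602, 283 and 395 CPM in the same order. CSMD1 and SUSD4, complement inhibitors of neurons, and CD46, a cofactor for the breakdown of C3b, had log2 fold changes of -0.08 to 0.08. The small value of CSMD1 (SE 0.87) came from libraries far apart, at 187, 475, 648 and 73.4 CPM in the same order. For CSMD1 both male libraries lay above both female libraries.

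Of 14 ligands and partners of the receptors, 12 were listed, 5 were tested and 0 were called, with a median log2 fold change of 0.12. APOE, a lipoprotein bound by TREM2, was at 1430 and 1680 CPM in Control female and LPS female. It was at 222 and 121 CPM in Control male and LPS male, so the female libraries lay above the male libraries in both groups. The markers of Bergmann glia or astrocytes, summed over the same microglia, divided the libraries alike. They were at 2100 and 1625 CPM in Control female and LPS female and at 1046 and 931 CPM in Control male and LPS male. Their part in the APOE level was not tested. The sex of the fetus, the median UMIs per nucleus and the mitochondrial share of the library cannot be told apart here. SYK, the kinase downstream of TREM2, was at 406, 190.1, 445 and 606 CPM in Control female, Control male, LPS male and LPS female (log2 fold change 0.78, SE 0.52). IRF8, a transcription factor of microglia, and GNAI2, a G protein subunit used by P2RY12, had log2 fold changes of -0.09 and 0.28.

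Of 20 other homeostatic genes of microglia, 19 were listed, 13 were tested and 0 were called, 4 fitted higher in LPS and 9 lower, with a median log2 fold change of -0.20. SLC9A9, MEF2C, MERTK and ENTPD1 had the highest levels. SLC9A9, a sodium-proton exchanger, had the pattern of CX3CR1 with the lowest value in Control male, at 2060 CPM against 4019 to 4406 CPM in the other libraries. MERTK, a receptor for the engulfment of dying cells, and ENTPD1, which breaks down extracellular ATP, were also lowest in Control male, at 1331 and 935 CPM, although LPS male was close to it, at 1416 and 1032 CPM. MEF2C, a transcription factor, was at 2185 to 3112 CPM over the 4 libraries.

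Of 20 reactive genes of microglia, 17 were listed, 9 were tested and 0 were called, with a median of 0.14. MS4A7 was at 264, 111, 445 and 532 CPM in Control female, Control male, LPS male and LPS female, the LPS libraries above the Control libraries (log2 fold change 1.31, SE 0.54, adjusted p = 0.999 in edgeR). CLEC7A, a receptor for fungal glucans, had a log2 fold change of 1.15 (SE 0.70), SPP1, osteopontin, one of -0.15 (SE 0.48) and CTSB, a lysosomal protease, one of -1.01 (SE 0.58). Of the 5 proliferation genes, none passed the filter, and DIAPH3, CENPF, TOP2A and MKI67 had 31, 4, 4 and 1 UMIs in Control female, 5, 5, 4 and 4 in Control male, 3, 0, 0 and 0 in LPS male and 11, 6, 4 and 3 in LPS female.

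In LYVE1 macrophages no test of LPS was made, since LPS male held only 3 such nuclei with 5291 UMIs. CSF1R had 24, 14, 3 and 14 UMIs in Control female, Control male, LPS male and LPS female and TREM2 had 11, 13, 1 and 9. In the 3 libraries with 20 or more nuclei TREM2 was at 103, 246 and 98.8 CPM in Control female, Control male and LPS female, highest in Control male as it was in microglia. P2RY12 was at 291, 151 and 395 CPM in these libraries, again lowest in Control male, although its counting interval there, 65.2 to 298 CPM, overlapped with those of the other libraries.

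Over all nuclei summed, 16138 genes were tested and 0 (0%) were called by edgeR, with 37 (0.229%) at an unadjusted p under 0.05 and 64 with DESeq2, which also called 0. With sex as a block 341 genes had an unadjusted p under 0.05, and with 1 library left out 80 to 276 (276 without Control female, 270 without LPS female, 89 without Control male, 80 without LPS male), with 0 called in each. All 9 measured members were tested and 0 were called, and their log2 fold changes ran from -1.13 (TREM2) to 0.79 (C3), with adjusted p-values of 1.00. The value of C3 was 0.12 without LPS male and 1.24 without LPS female, and that of TREM2 was -0.66 without Control male, -0.74 without LPS male and -1.69 without LPS female. In such sums fewer nuclei of a type and less RNA per nucleus cannot be told apart. C3 and TREM2 were again the members whose normalised groups did not overlap, 2 of 9 beside 13.2% of all genes tested (6.79% with both LPS libraries higher and 6.46% with both lower), the microglia being part of these sums. TREM2 had 75, 65, 16 and 44 UMIs in Control female, Control male, LPS male and LPS female (1.65, 3.23, 0.727 and 1.43 CPM) and C3 had 125, 71, 160 and 104 (2.74, 3.53, 7.27 and 3.37 CPM). Before normalisation factors were applied, the C3 level of LPS female lay below that of Control male. Of the 160 UMIs of C3 in LPS male, 64 lay in microglia, 38 in mixed immune nuclei, 20 in the granule lineage, 17 in unnamed cluster 6 and 12 in GABAergic interneurons.

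The shares of the immune classes were compared in the same way. Microglia made up 0.497% of the nuclei in Control female, 0.406% in Control male, 0.307% in LPS male and 0.463% in LPS female. The log2 fold change was -0.23 (SE 0.78, adjusted p = 0.883 in edgeR), and it was 0.037 without LPS male and -0.55 without LPS female. LYVE1 macrophages made up 0.259%, 0.255%, 0.0384% and 0.290%, a log2 fold change of -0.66 (SE 0.85, adjusted p = 0.883), which was 0.17 without LPS male and -2.70 without LPS female (adjusted p = 0.0516). The low value of LPS male was 3 nuclei of 7805, in the library that also had 24.2% of its nuclei in the low-UMI cluster, and its weight in the share was not tested.

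The members were also present outside nuclei. In barcodes with at most 100 UMIs, taken as free RNA, C1QB was at 15.0 CPM in Control female (22 UMIs), 2.40 in Control male (2), 2.23 in LPS male (3) and 13.6 in LPS female (17). C1QC was at 11.6, 2.40, 0.743 and 11.2 CPM and CX3CR1 at 10.9, 1.20, 1.49 and 8.82 CPM in the same order. The female libraries, which had the higher mitochondrial share, were above the male libraries for all 3 genes, and the groups of treatment overlapped. In the female libraries C1QB was at 1.86 and 1.98 CPM over all nuclei, below its level in free RNA, with counting intervals that did not overlap. In Control male and LPS male it was at 0.944 and 0.363 CPM over all nuclei, also below free RNA, but with counting intervals that overlapped.

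P2RY12 was likewise higher in the female libraries, at 21.2 and 32.9 CPM in Control female and LPS female and 14.4 and 7.43 CPM in Control male and LPS male. Its level in free RNA was above that over all nuclei in both female libraries, 14.0 and 15.8 CPM, with counting intervals that did not overlap in LPS female. Over all nuclei it was at 13.5 CPM in Control male, below free RNA, and at 10.0 CPM in LPS male, above free RNA, with overlapping intervals in both. CSF1R was at 2.05, 2.40, 2.23 and 0 CPM (0 to 3 UMIs) beside 2.14 to 4.27 CPM over all nuclei, and C3 at 4.80 to 7.43 CPM beside 2.74 to 7.27 CPM. In granule lineage nuclei C1QB had 35 and 16 UMIs in Control female and LPS female and 3 in each male library, the order seen in free RNA. In the microglia of the 4 libraries C1QB was at 77.3, 79.2, 20.2 and 55.1 CPM, beside 15.0, 2.40, 2.23 and 13.6 CPM in the free RNA of Control female, Control male, LPS male and LPS female.

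**Figure D5:**
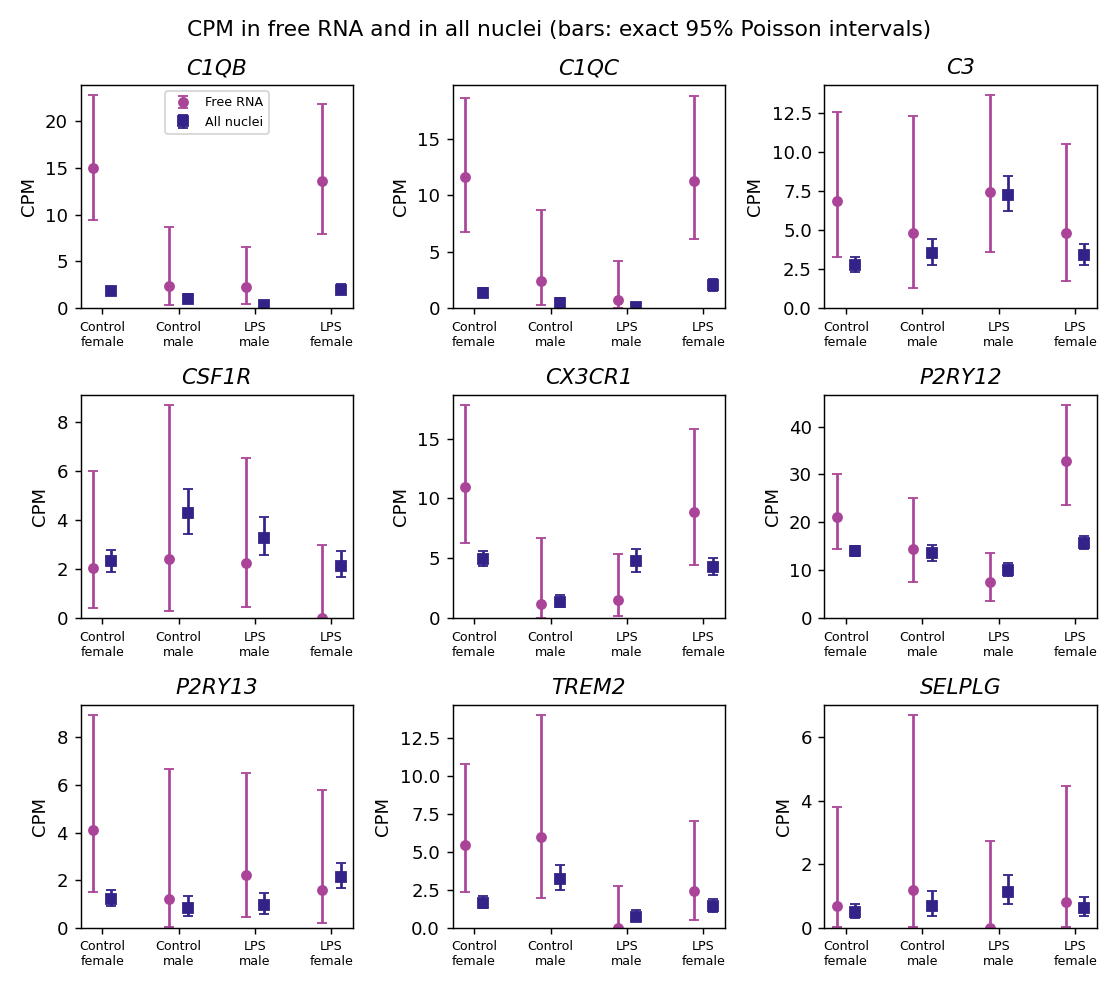
Level of each member in free RNA (circles, barcodes with at most 100 UMIs) and over all nuclei (squares) in each library, in CPM on linear axes that start at 0; bars are exact 95% Poisson intervals for counting error. C1QB and C1QC in free RNA lie above their level in nuclei in every library, at 11.2 to 15.0 CPM in the female libraries, and the bars overlap in the male libraries only. CSF1R in free RNA is at 0 to 2.40 CPM.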

How the data were processed

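Nuclei were prepared from frozen cerebellum of 4 rhesus fetuses, and libraries were made with the Chromium Next GEM 3' kit v3.1. Per the labels, reads were mapped by the authors with Cell Ranger to Mmul_8.0.1 with introns included; the labels' protocol names version 5.0, while the file headers and the submitters' processing notes name version 4. The deposited matrices hold raw UMI counts of all barcodes, before the removal of ambient RNA that the study describes, which was not applied here. Barcodes with 500 or more genes were kept. Nuclei were integrated and clustered with Seurat 5.3.0 (2000 variable genes, members left out, 30 dimensions, resolution 0.5), clusters were named from marker lists and immune nuclei were clustered again. Scrublet marked 368 to 637 doublets per library and these were kept in the main comparison. Its automatic limit marked 0% and 0.0256% in the male libraries, where the median limit was used.

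UMIs were summed per library and tested with edgeR 4.0.16 (quasi-likelihood test, TMM factors, filter on low counts, Control against LPS, 2 libraries each), with a call at adjusted p under 0.1 and absolute log2 fold change over 0.25, and for shares at adjusted p under 0.05. The script was tested on simulated data. CPM values divide by all UMIs of the class. The log2 differences within a sex were taken after TMM normalisation with a small count added to each library. They therefore differ from log2 ratios of the printed CPM, most where UMIs were few. Per-nucleus shares were recomputed after thinning to 1000 UMIs, which left out 0 to 6 microglia per library. The alternatives were DESeq2 1.42.0, no filter, sex as a block, nuclei with 1000 or more genes, at most 5% mitochondrial UMIs, doublets left out, a gate on marker UMIs, and each library left out. Mixed immune nuclei counted as microglia were added after the data were seen.

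The members and gene lists were chosen with earlier results of these data known. The genes named were the members; from each list, genes past the test, otherwise the 4 with the highest mean CPM in microglia; and the 10 genes most like the members' mean over classes, among genes with 100 or more UMIs, of which 1 is not reported here.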

Additional observations from a re-analysis of the deposited data

Results flagged for a closer look

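For 3 results the difference between LPS and Control ran in opposite directions in the 2 sexes, by more than 0.25 on the log2 scale in each; with 1 library of each sex in each group, the difference between the sexes was not tested. P2RY13 in microglia differed by 1.72 between the female libraries and by -0.98 between the male libraries. In the sums over all nuclei, C1QC differed by 0.45 between the female libraries and by -1.38 between the male libraries, where it rested on 10 UMIs in Control male and 3 in LPS male. CX3CR1 over all nuclei differed by -0.29 between the female libraries and by 1.86 between the male libraries, from 27 UMIs in Control male and 104 in LPS male. Sex, median UMIs per nucleus and the mitochondrial share divided the libraries in the same way and cannot be told apart.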

How the results depend on the processing

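No alternative called a member in microglia or in all nuclei, other than CX3CR1 without Control female: members called in microglia ranged from 0 to 1 over the libraries left out. Genes called in microglia, 0 in the main comparison, were 3 without the filter on low counts and 3 to 12 with 1 library left out; 0 were called in all nuclei under every alternative run. For single members in microglia, the direction was reversed in 4 of 80 alternatives. The limit of 5% mitochondrial UMIs and the removal of doublets took out no microglia. Those alternatives therefore repeated the main fit for microglia and could not reverse a direction. CSF1R was at -0.24 with the mixed immune nuclei included. With 1 library left out, CSF1R ran from -0.59 (without LPS male) to 0.96, CX3CR1 from -0.15 (without Control male) to 4.17 and P2RY12 from -0.24 (without Control male) to 2.34. P2RY13 ran from 1.03 to 1.83 and could not be fitted without LPS female, where it failed the filter. C3 stayed above 0 (0.49 to 1.90) and TREM2 below 0 (-1.59 to -0.78) in each of their 12 alternatives, those that repeated the main fit included. The groups did not overlap for either gene. The fits with 1 library left out or with sex as a block were therefore bound to keep these signs and are no further check of them.

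In all nuclei 11 of 90 were reversed. C1QC was at -0.23 with sex as a block. With 1 library left out, C1QB ran from -1.96 to 0.47 (above 0 without Control female or LPS male), C1QC from -2.79 to 1.21 (below 0 without Control male or LPS female), CSF1R from -0.59 to 0.18 (above 0 without Control male or LPS female), CX3CR1 from -0.19 (without Control male) to 1.83, C3 from 0.12 to 1.24, TREM2 from -1.69 to -0.66, P2RY12 from -0.44 to 0.20 (above 0 without Control female or LPS male) and P2RY13 from -0.13 (without LPS female) to 1.03. The normalised groups of C3 and TREM2 did not overlap here either, so leaving out 1 library was bound to keep their signs. The causes of the reversals were not tested. The log2 fold change of the microglial share ran from -0.55 to 0.037 and that of the LYVE1 macrophage share from -2.70 to 0.17, the values above 0 being those without LPS male. The test planned for LYVE1 macrophages was not run, since LPS male held 3 of them. Thinning to 1000 UMIs lowered the share of microglia with a UMI for all 9 members, for C1QB from 15.3% to 6.20% and for P2RY12 from 67.2% to 48.1%.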
